A study of Mus musculus with 16 samples.

Results

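Iron uptake, export, storage and sensing genes were followed in 16 mouse hearts. The 8 genes were chosen by name: the transferrin receptor Tfrc, the iron transporter Slc11a2, the iron exporter Slc40a1 (ferroportin), the ferritin chains Fth1 and Ftl1, the ferritin cargo receptor Ncoa4, and the iron regulatory proteins Ireb2 and Aco1. All 8 were found among the 30153 genes of the deposited table, and all 8 were among the 11415 genes that reached a level of 1 TPM, the length-normalised unit of the deposited table, in 3 or more libraries. They were picked with earlier results of these data known, among them their levels in the same comparisons between groups, so their values and fold changes are given as descriptions and carry no p-value.

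The hearts came from 4 groups. Hap-I aged WD (n = 5) were aged Haplotype-I mice on a western diet (WD), Hap-I aged (n = 4) were aged Haplotype-I mice with no diet named, and Hap-I adult WD (n = 4) were adult Haplotype-I mice labelled as on a western diet. C57 adult (n = 3) were adult mice without the haplotype label and with no diet named. All 16 carried the strain label C57/BL6, and the series title describes mice that overexpress a human angiotensin type 1 receptor, a receptor for the vasoconstrictor hormone angiotensin II. The series' design text names the group of Hap-I adults without a diet, whereas their sample labels name one; the sample labels were followed. The labels give no age in months, sex, litter, promoter of the transgene or diet composition. No aged C57 mice or Hap-I adults off the diet were analysed here. Haplotype and age therefore cannot be told apart in Hap-I aged against C57, nor haplotype and diet in Hap-I adult WD against C57. Haplotype, age and diet are all joined in Hap-I aged WD against C57. Age and diet cannot be told apart in Hap-I aged against Hap-I adult WD.

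Cells take up iron bound to transferrin through the transferrin receptor, release it from endosomes, store the excess in ferritin and send it out through ferroportin. The iron regulatory proteins bind stem-loops in messenger RNAs called iron-responsive elements when iron is scarce: binding in the leader of the ferritin and ferroportin messages blocks their translation, and binding in the tail of the transferrin receptor message protects it from decay. In the heart, mice that lack the transferrin receptor in cardiomyocytes develop cardiomyopathy, and iron is needed for the heme and iron-sulfur proteins of respiration.

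The stem-loops were searched for in the untranslated regions (UTRs) of the GENCODE M21 transcripts of build GRCm38. Through them the iron regulatory proteins, encoded by Ireb2 and Aco1, act on the ferritin, ferroportin and transferrin receptor messages. The pattern was a C, 5 stem bases, the loop letters CAGTGN and 5 bases that pair with the stem (G-T pairs allowed), on the transcript's strand. Each sequence below is a 30-base window, 5′ to 3′, with the CAGTG of the loop in capitals.
Fth1 5′ UTR: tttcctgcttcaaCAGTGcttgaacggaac
Ftl1 5′ UTR: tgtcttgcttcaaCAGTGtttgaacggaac
Slc40a1 5′ UTR: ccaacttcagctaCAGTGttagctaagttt
Tfrc 3′ UTR, a: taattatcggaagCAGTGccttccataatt
Tfrc 3′ UTR, b: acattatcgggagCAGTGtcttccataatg
Tfrc 3′ UTR, c: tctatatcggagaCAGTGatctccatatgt
Tfrc 3′ UTR, d: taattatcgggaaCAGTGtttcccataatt
Slc11a2 3′ UTR: gagccatcagagcCAGTGtgtttctatggt

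The Fth1 window lies at chr19:9982731-9982760 on the plus strand, the Ftl1 window at chr7:45459779-45459808 on the minus strand and the Slc40a1 window at chr1:45925465-45925494 on the minus strand, each in the 5′ UTR. The 4 Tfrc windows, lettered from the 5′ end, lie in its 3′ UTR on the plus strand, at chr16:32631218-32631247, chr16:32631597-32631626, chr16:32631662-32631691 and chr16:32631709-32631738. Their starts are 379, 65 and 47 bases apart. The Slc11a2 window, at chr15:100395153-100395182 on the minus strand, needed 1 unpaired base in the stem and was read from transcript Slc11a2-205. The Fth1 match was found in 4 annotated transcripts and each of the others in 1. No match was found in Ncoa4, Ireb2 or Aco1. Over all annotated genes, 29 of 20140 with a 5′ UTR (0.144%) and 126 of 20529 with a 3′ UTR (0.614%) held the pattern with all 5 pairs, and 0.487% and 2.00% held it when 1 unpaired base was allowed. A match describes the letters only; binding was not measured.

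**Figure D1:**
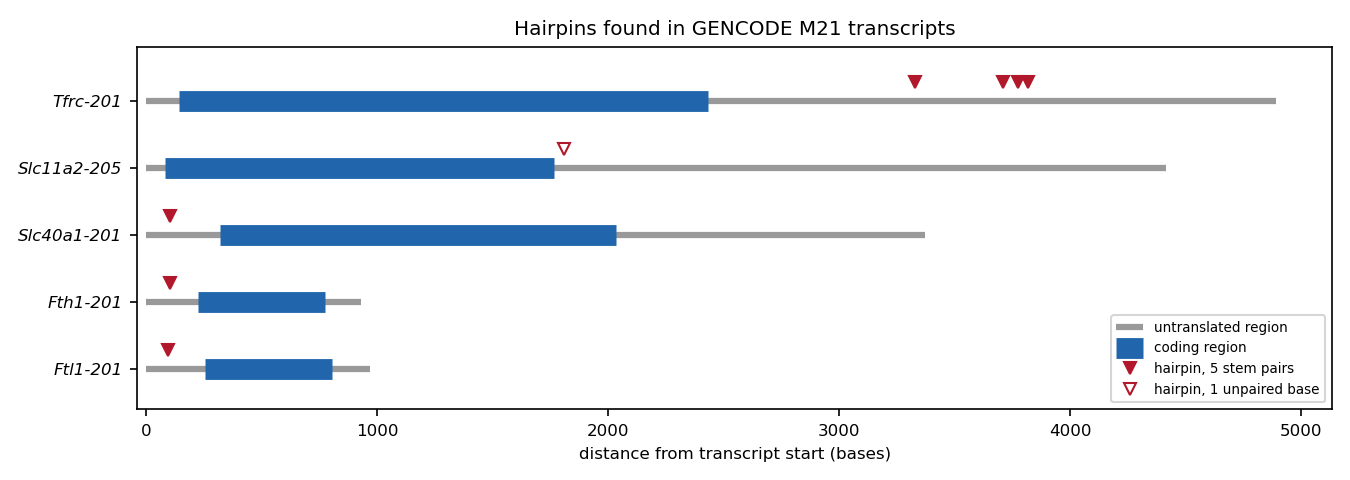
Transcripts of the 5 genes with a match, drawn to scale from the transcript start in bases (horizontal axis), with untranslated regions in grey, coding regions in blue and matches as red triangles (open where 1 base was unpaired). The 4 Tfrc matches lie in the 3′ UTR, and those of Slc40a1, Fth1 and Ftl1 lie ahead of the coding region.

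Values are TPM as the authors deposited them, divided by a size factor per library (0.682 to 1.239) and called scaled TPM. Mitochondrial transcripts took 31.1 to 46.1% of each library's deposited total, and 9553 to 11175 genes reached 1 TPM. The deposited unit hides the read depth, so the depth is unknown and no counting interval is given. Heart muscle markers were abundant throughout (10 ventricular markers summed to 35729 to 51715 scaled TPM). The sum of 8 atrial markers varied widely: 91.6 to 204 in Hap-I aged WD, 100.1 to 5145 in Hap-I aged, 40.4 to 1186 in Hap-I adult WD and 235.3 to 6786 in C57. Y-linked transcripts were absent (under 1 TPM) in Hap-I aged WD replicates 1 to 3 and Hap-I adult WD replicates 1 and 2. Both groups were labelled western diet, so this absence and diet are partly joined in their comparisons with Hap-I aged and C57 hearts. In whole hearts, fewer cells of a type and less RNA per cell cannot be told apart. The design text counts 3 to 5 animals a group and the labels say no more of the replicates, so p-values measure the spread between these libraries only.

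The mean of Tfrc was several times higher in each Hap-I group than in C57 hearts, while the ferritin chains were lowest in the Hap-I aged hearts. Tfrc was also the most variable of the 8 genes: its highest library stood 7.87-fold above its lowest, against 1.49-fold to 2.08-fold for the other 7. By mean level, which TPM gives per transcript length, Fth1 lay above 99.6% and Ftl1 above 98.0% of the genes kept. Ncoa4 lay above 81.4%, Tfrc above 72.6%, Aco1 above 58.6%, Slc40a1 above 53.9%, Slc11a2 above 51.6% and Ireb2 above 45.4%.

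**Figure D2:**
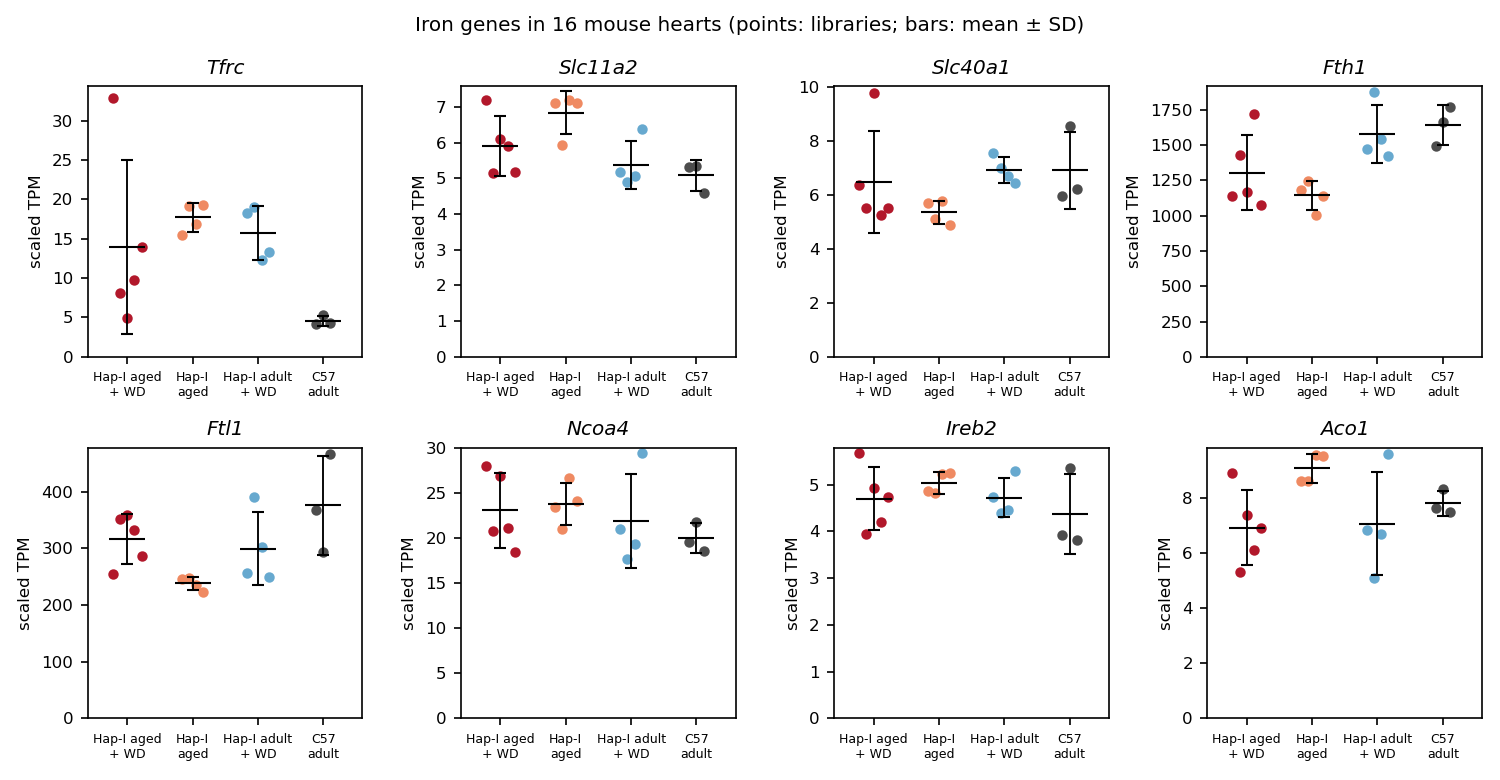
Scaled TPM (vertical axes, linear from 0) of the 8 genes in the 4 groups of hearts; points are libraries and bars are mean ± SD (n = 5, 4, 4 and 3 from left to right). Tfrc lies at 4.18 to 5.28 in the 3 C57 hearts and at 12.2 or above in all 8 Hap-I aged and Hap-I adult WD hearts, while the 5 Hap-I aged WD hearts spread over 4.99 to 32.9.

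Tfrc (ENSMUSG00000022797; chr16:32608920-32632794, plus strand) encodes the receptor that brings transferrin-bound iron into cells. Its level was 32.9, 8.04, 4.99, 9.76 and 14.0 scaled TPM in the Hap-I aged WD hearts and 15.5, 19.1, 16.9 and 19.3 in the Hap-I aged hearts. It was 18.2, 19.1, 12.2 and 13.3 in the Hap-I adult WD hearts and 4.18, 5.28 and 4.25 in the C57 hearts. Every Hap-I aged and Hap-I adult WD heart was above every C57 heart. Of the Hap-I aged WD hearts, replicate 3 lay within the C57 range and replicate 1 was the highest of all 16. Group means were 13.9 ± 11.1, 17.7 ± 1.83, 15.7 ± 3.44 and 4.57 ± 0.612 scaled TPM (SD) in Hap-I aged WD, Hap-I aged, Hap-I adult WD and C57. The coefficient of variation was 79.6% in Hap-I aged WD hearts, against 10.3% in Hap-I aged hearts, 21.9% in Hap-I adult WD hearts and 13.4% in C57 hearts. In the order of means, Hap-I aged, Hap-I adult WD and Hap-I aged WD overlapped each other, and only C57 stood apart, from the first pair and not from Hap-I aged WD.

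Fold changes were taken on the log2(scaled TPM + 1) scale, which understates the change of low genes, with the standard error from limma. Tfrc was higher in Hap-I aged than in C57 hearts by 1.75 ± 0.39 (3.36-fold), in Hap-I adult WD by 1.57 ± 0.39 (2.96-fold) and in Hap-I aged WD by 1.16 ± 0.37 (2.24-fold). These 3 comparisons share the 3 C57 hearts. Between the Hap-I groups its differences were -0.59 ± 0.34 for aged WD against aged, -0.40 ± 0.34 for aged WD against adult WD and 0.18 ± 0.36 for aged against adult WD. Without Hap-I aged WD replicate 1 the first of these was -0.95 and the second -0.76, and without replicate 3 they were -0.32 and -0.14, so single libraries set their size.

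A gene is called here when its Benjamini-Hochberg adjusted p over all 11415 genes is under 0.05 in limma. In Hap-I aged against C57, 4 of the 8 genes were called, Tfrc and Slc11a2 higher and Fth1 and Ftl1 lower, against 11.2% of all genes called; in the same comparison the groups did not overlap for 6 of the 8, against 34.1% of all genes. In Hap-I adult WD against C57 only Tfrc was called (background 3.45%), and only Tfrc did not overlap (background 18%). In Hap-I aged WD against C57 only Tfrc was called (background 21.9%) and none of the 8 was without overlap (background 23.4%). The mean of the 3 Hap-I groups against C57 likewise called only Tfrc (background 15.7%), at 1.49 ± 0.33, with none of the 8 without overlap (background 7.75%). Within the Hap-I groups limma called 0 of the 8 in aged WD against aged (background 0.166%), aged WD against adult WD (background 2.39%) and aged against adult WD (background 2.14%). There, 1, 0 and 3 of the 8 were without overlap in those comparisons, against 7.14%, 6.31% and 16.0% of all genes. The choice of the 8 used these contrasts, so nothing is read from these counts. The omissions and alternatives below describe how the calls depend on libraries and processing, and are no test of the 8 genes.

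The Tfrc call in Hap-I aged against C57 was lost without C57 replicate 1 or 3, with the difference between 1.70 and 1.84 over all single omissions. In Hap-I adult WD against C57 it was lost without any 1 of the 3 C57 libraries, adult WD replicates 1 to 3 or any Hap-I aged library (1.48 to 1.67 over all single omissions), and in Hap-I aged WD against C57 without any 1 C57 library or aged WD replicate 5 (0.80 to 1.42). A covariate for the Y-linked transcripts gave 1.75, 1.46 and 1.04 for Hap-I aged, adult WD and aged WD against C57, and an atrial covariate gave 1.68, 1.48 and 1.01; of these 3, only Hap-I aged against C57 was still called with either. The call in Hap-I adult WD was also lost without scaling, with no filter and under quantile normalization. That in Hap-I aged WD was also lost without scaling, with no filter, with the length correction and when only these groups were fitted. For the mean of the Hap-I groups it was lost without C57 replicate 1 or 3 (1.37 to 1.58 over all single omissions) and with the atrial covariate (1.39).

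**Figure D3:**
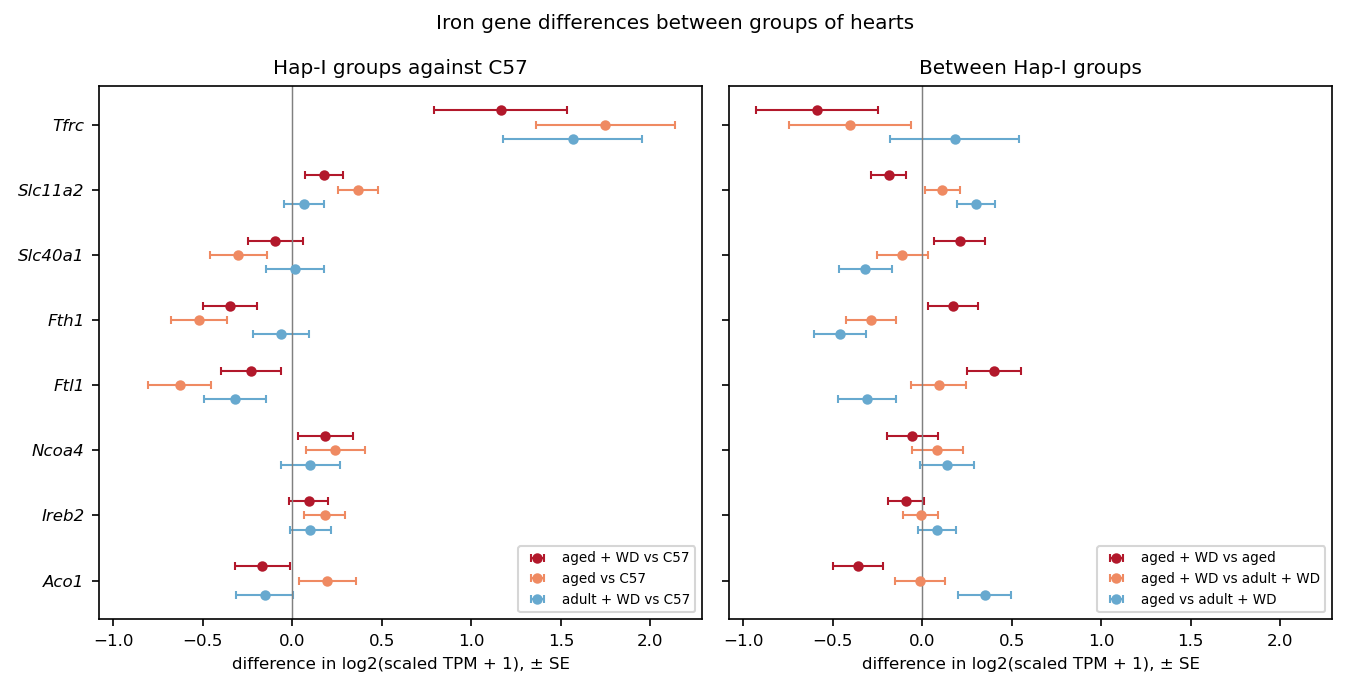
Differences in log2(scaled TPM + 1) ± SE (horizontal axes) of the 8 genes, for the 3 Hap-I groups against C57 (left) and between Hap-I groups (right). Tfrc stands at 1.16, 1.75 and 1.57 against C57, whereas Fth1 and Ftl1 lie to the left of 0 there, furthest in Hap-I aged at -0.52 and -0.63; quantile normalization puts Fth1 in Hap-I adult WD and Hap-I aged WD, and Ftl1 in Hap-I aged WD, to the right of 0.

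Markers of other cells were set beside Tfrc. Erythroid precursors carry abundant transferrin receptor, and 10 erythroid markers, 4 of them globins, summed to 7678, 5088, 1782, 6600 and 6485 scaled TPM in Hap-I aged WD hearts, 2282 to 3989 in Hap-I aged hearts, 2164 to 8402 in Hap-I adult WD hearts and 2675 to 4659 in C57 hearts. Within Hap-I aged WD, replicate 1 had the highest and replicate 3 the lowest erythroid sum, as for Tfrc. In Hap-I adult WD replicates 1 to 4 the sums were 2164, 8402, 3350 and 3987, beside Tfrc at 18.2, 19.1, 12.2 and 13.3. There replicate 2 was highest in both, but replicate 1 had the lowest sum and not the lowest Tfrc. Hap-I aged hearts, with Tfrc at 15.5 or more, had sums inside or below the C57 range. The erythroid factors Gata1 and Klf1 did not exceed 0.243 and 0.186 scaled TPM in any heart, and Epb42 was under 0.05 in all Hap-I aged hearts. Of the 5 erythroid markers tested, limma called 0 in any comparison (0.166 to 21.9% of all genes were called). In Hap-I aged WD against Hap-I aged all 5 were positive, with a median of 0.88 on the log2 scale and 3 at an unadjusted p under 0.05, while Tfrc stood at -0.59; in the other 6 comparisons 0 of 5 had an unadjusted p under 0.05. The share of all genes at an unadjusted p under 0.05 is not given beside these counts, so nothing is read from them. The part of blood in the Tfrc levels was not tested further. Macrophage markers (12) summed to 105 to 151 in Hap-I aged WD, 103 to 114 in Hap-I aged, 94.9 to 126 in Hap-I adult WD and 104 to 196 in C57.

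Slc11a2 (ENSMUSG00000023030; DMT1) moves ferrous iron out of the endosome and across membranes. Its level was 7.20, 5.14, 6.10, 5.91 and 5.17 scaled TPM in Hap-I aged WD hearts and 7.10, 5.94, 7.20 and 7.11 in Hap-I aged hearts. It was 5.17, 4.90, 5.07 and 6.37 in Hap-I adult WD hearts and 5.32, 5.35 and 4.58 in C57 hearts. The Hap-I aged hearts were all above the C57 hearts (0.36 ± 0.11, 1.29-fold), and the other groups overlapped both. The call in Hap-I aged against C57 was lost without any 1 of 11 libraries, namely the 3 C57, Hap-I adult WD 1 to 3, Hap-I aged 1, 3 and 4 and Hap-I aged WD 3 and 4 (differences of 0.30 to 0.42 over all single omissions), and under 7 of the 10 other alternatives.

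Slc40a1 (ENSMUSG00000025993), ferroportin, is the iron exporter of mammalian cells. It averaged 6.48 ± 1.88, 5.35 ± 0.435, 6.91 ± 0.470 and 6.90 ± 1.42 scaled TPM (SD) in Hap-I aged WD, Hap-I aged, Hap-I adult WD and C57. The 4 Hap-I aged hearts, at 4.86 to 5.75, lay below all C57 hearts (5.95 to 8.53) and all Hap-I adult WD hearts (6.45 to 7.53). The differences were -0.30 ± 0.16 and -0.32 ± 0.15, and neither was called. Hap-I aged WD replicate 3, at 9.76, was the highest of the 16, and the other 4 hearts of its group lay at 5.26 to 6.34.

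Fth1 (ENSMUSG00000024661; chr19:9980598-9985098, plus strand) encodes the ferritin heavy chain, which oxidizes iron for storage. Its level was 1140, 1429, 1166, 1720 and 1074 scaled TPM in Hap-I aged WD hearts and 1184, 1248, 1004 and 1140 in Hap-I aged hearts. It was 1473, 1876, 1541 and 1421 in Hap-I adult WD hearts and 1494, 1661 and 1772 in C57 hearts. The Hap-I aged hearts lay below all C57 hearts and all Hap-I adult WD hearts, while Hap-I aged WD hearts spanned both ranges. The difference was -0.52 ± 0.16 in Hap-I aged against C57 and -0.46 ± 0.15 in Hap-I aged against adult WD. In Hap-I aged WD and Hap-I adult WD against C57 it was -0.35 ± 0.15 and -0.06 ± 0.16.

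Ftl1 (ENSMUSG00000050708; chr7:45457944-45459884, minus strand) encodes the ferritin light chain. Its level was 254.5, 351.2, 358.7, 332.3 and 287.1 scaled TPM in Hap-I aged WD hearts and 245.7, 248.5, 235.2 and 223.6 in Hap-I aged hearts. It was 255.7, 390.8, 302.5 and 250.0 in Hap-I adult WD hearts and 367.9, 293.3 and 465.9 in C57 hearts. The Hap-I aged hearts were below every other heart of the series. Their difference from C57 was -0.63 ± 0.17, and Hap-I aged WD hearts were 0.40 ± 0.15 above Hap-I aged hearts, a difference that was not called. Of the 31-base words in Ftl1 transcripts, 64.1% also occur in other annotated genes, so reads could be split among copies and its level is uncertain. In Fth1 that share was 3.2%.

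The ferritin differences depended on the scaling. Under quantile normalization Fth1 stood at -0.20 in Hap-I aged, 0.16 in Hap-I adult WD and 0.04 in Hap-I aged WD against C57, and Ftl1 at -0.41, -0.21 and 0.01. Both ferritin calls in Hap-I aged against C57 were lost under it, without scaling, with no filter, with an atrial covariate and after a correction for transcript length, and that of Fth1 with a covariate for Y-linked transcripts as well. The Fth1 call was also lost without any 1 C57 or Hap-I aged library, Hap-I adult WD 1 or 3 or Hap-I aged WD 3 (-0.59 to -0.46 over all single omissions). That of Ftl1 was lost without C57 1 or 3 or Hap-I aged 1, 3 or 4 (-0.80 to -0.46). Fibroblast markers (8) summed to 236 to 386 in Hap-I aged WD, 323 to 413 in Hap-I aged, 275 to 394 in Hap-I adult WD and 441 to 501 in C57; their part in the ferritin levels was not tested.

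The ratio of Tfrc to Fth1 uses 2 genes of the same library and is free of the size factor. It was 28.9, 5.63, 4.28, 5.67 and 13.0 Tfrc TPM per 1000 Fth1 TPM in Hap-I aged WD hearts and 13.1, 15.3, 16.8 and 16.9 in Hap-I aged hearts. It was 12.4, 10.2, 7.95 and 9.35 in Hap-I adult WD hearts and 2.80, 3.18 and 2.40 in C57 hearts. Tfrc and Fth1 were chosen with these levels known, so the separation below is a description, and other gene pairs were not compared. In this ratio all 13 Hap-I hearts were above all 3 C57 hearts, and all Hap-I aged hearts were above all Hap-I adult WD hearts. The means were 11.5 ± 10.3, 15.6 ± 1.79, 9.96 ± 1.86 and 2.79 ± 0.389 (SD) in Hap-I aged WD, Hap-I aged, Hap-I adult WD and C57. The 2 ferritin chains kept a narrower ratio, of 3.25 to 5.18 Fth1 per Ftl1 TPM in Hap-I aged WD, 4.27 to 5.10 in Hap-I aged, 4.80 to 5.76 in Hap-I adult WD and 3.80 to 5.66 in C57.

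**Figure D4:**
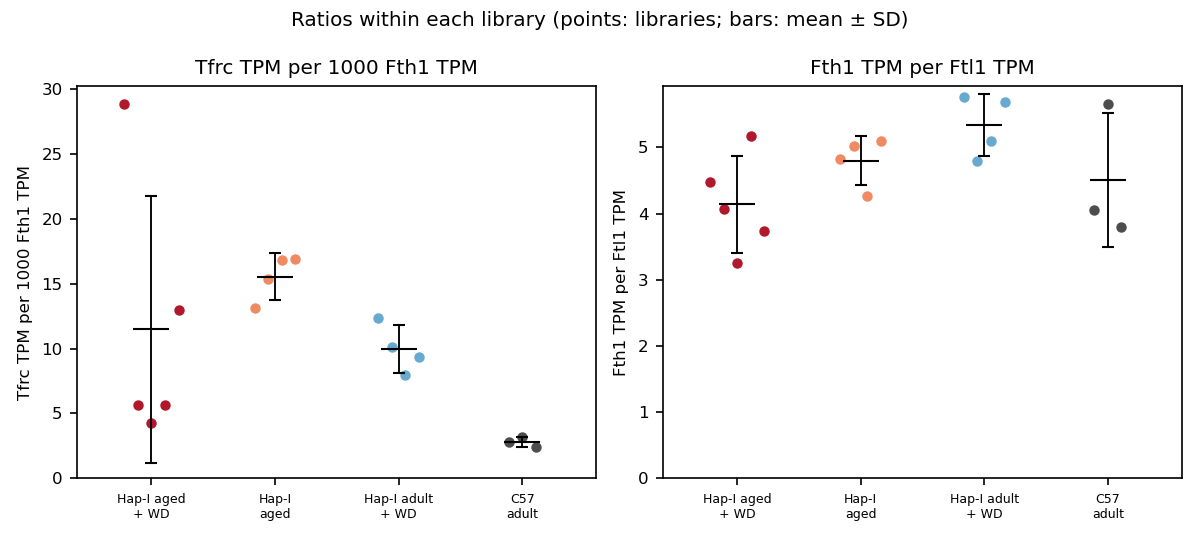
Tfrc TPM per 1000 Fth1 TPM (left) and Fth1 TPM per Ftl1 TPM (right) in each library, with mean ± SD by group; vertical axes are linear and start at 0. On the left all Hap-I hearts lie at 4.28 or above and the C57 hearts at 3.18 or below; on the right the 4 groups overlap.

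Ncoa4 (ENSMUSG00000056234) delivers ferritin to lysosomes so that its iron is released. It averaged 23.1 ± 4.17, 23.9 ± 2.34, 21.9 ± 5.23 and 20.01 ± 1.64 scaled TPM (SD) in Hap-I aged WD, Hap-I aged, Hap-I adult WD and C57, and the 4 groups overlapped. Its differences from C57 were 0.18 ± 0.16, 0.24 ± 0.16 and 0.10 ± 0.16 in Hap-I aged WD, Hap-I aged and Hap-I adult WD. Of its 31-base words, 18.8% occur in other genes.

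Ireb2 (ENSMUSG00000032293) encodes iron regulatory protein 2, which is degraded when iron is plentiful. It had the narrowest range of the 8 genes over the 16 libraries (1.49-fold), with means of 4.70 ± 0.680, 5.04 ± 0.233, 4.72 ± 0.413 and 4.37 ± 0.857 scaled TPM (SD) in Hap-I aged WD, Hap-I aged, Hap-I adult WD and C57, all overlapping. Aco1 (ENSMUSG00000028405) encodes iron regulatory protein 1, which acts as cytosolic aconitase when it holds an iron-sulfur cluster. It stood at 5.31 to 8.89 in Hap-I aged WD, 8.61 to 9.54 in Hap-I aged, 5.10 to 9.59 in Hap-I adult WD and 7.47 to 8.32 in C57. The Hap-I aged hearts were all above the C57 hearts (0.19 ± 0.16) and overlapped the other Hap-I groups; Hap-I aged WD against Hap-I aged was -0.36 ± 0.14. No call was made for Ncoa4, Ireb2 or Aco1.

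Genes whose profiles were nearest to that of Tfrc over the 16 libraries were ranked by the root mean square difference of standardized profiles among 6065 genes with a mean of at least 5 scaled TPM. The 5 nearest were Cavin4 (0.577), a caveola protein of muscle, Slc41a3 (0.587), a magnesium transporter, Akap1 (0.605), a mitochondrial anchor for protein kinase A, Ankrd50 (0.628) and Eepd1 (0.629). Slc41a3 averaged 22.7, 28.2, 35.3 and 12.5 scaled TPM in Hap-I aged WD, Hap-I aged, Hap-I adult WD and C57. For Cavin4 the same means were 50.3, 52.5, 55.8 and 40.6. Among the members tested for likeness Slc11a2 was nearest to Tfrc (0.962, with 235 genes nearer) and Ftl1 farthest (1.783, with 6043 nearer). The genes nearest to the mean profile of Fth1 and Ftl1 were Tmem134 (0.391), Gabarap (0.404), a small protein of autophagosomes, and S100a10 (0.421), the partner of annexin A2. Gabarap averaged 163, 143, 197 and 198 scaled TPM in Hap-I aged WD, Hap-I aged, Hap-I adult WD and C57.

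A wider set of 114 iron genes, none of them among the 8, covered transport, the hepcidin axis, transcript control, storage, iron-sulfur clusters and mitochondrial iron, heme, and lipid peroxidation (ferroptosis). Of these, 99 passed the filter and were tested with limma, with p-values adjusted over all 11415 genes. The set was listed with earlier results of these data known, so its p-values are no independent test. In Hap-I aged against C57, 3 rose and 4 fell (7.1% of 99, against 11.2% of all genes; median -0.04, against -0.01 over all genes). Hif1a, the oxygen-regulated transcription factor subunit, rose by 0.64 ± 0.13 (adjusted p = 0.00713), Alas1, the first enzyme of heme synthesis outside red cells, by 0.62 ± 0.16 (0.0227) and Ciapin1, a cytosolic iron-sulfur assembly protein, by 0.36 ± 0.09 (0.0188). The fallers were the heme synthesis enzyme Urod (-0.34 ± 0.09, adjusted p = 0.0224), the heme-degrading Hmox1 (-0.56 ± 0.15, 0.0238), the heme-binding Pgrmc1 (-0.44 ± 0.12, 0.0269) and the glutathione-degrading Chac1 (-1.02 ± 0.26, 0.0240). Only Hif1a kept its call on every single omission (highest adjusted p = 0.0453). The others lost it without 1 or more of C57 1 to 3 and Hap-I aged 1, 3 and 4, with highest adjusted p of 0.0732 to 0.136. Each of the 7 calls was lost without scaling (0 called), 4 were called with an atrial covariate, 3 with the length correction, and 16 (5 higher, 11 lower) when only these groups were fitted.

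Hif1a stood at 8.78 to 10.3 scaled TPM in Hap-I aged WD, 9.63 to 12.4 in Hap-I aged, 8.0 to 10.1 in Hap-I adult WD and 5.73 to 9.01 in C57. Every Hap-I aged heart was above every C57 heart, in a comparison where 34.1% of all genes did not overlap. Without scaling its adjusted p in Hap-I aged against C57 was 0.0567.

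In Hap-I aged WD against C57, 7 of the 99 rose and 11 fell (18.2%, against 21.9% of all genes; median -0.06, against -0.00 over all genes). Of the 20 heme genes 5 fell and 0 rose, among them Urod (-0.50 ± 0.08, adjusted p = 0.00127), Pgrmc1 (-0.51 ± 0.11, 0.00551) and the porphyrin transporter Abcb6 (-0.49 ± 0.15, 0.0272). Fdx1, the mitochondrial ferredoxin, fell (-0.48 ± 0.11, 0.00803), as did Trf, transferrin itself (-1.20 ± 0.33, 0.0174), and Pcbp1, an iron chaperone (-0.32 ± 0.08, 0.0164). Of 29 genes of iron-sulfur clusters and mitochondrial iron, 5 rose and 1 fell. The risers included Slc25a37 (mitoferrin), which imports iron into mitochondria, by 0.44 ± 0.09 (0.00368), and the cytosolic assembly genes Nubp1 by 0.36 ± 0.10 (0.0219), Ndor1 by 0.38 ± 0.11 (0.0232) and Ciapin1 by 0.28 ± 0.08 (0.0251). Rc3h1, which encodes the RNA-binding protein Roquin-1, rose by 0.41 ± 0.11 (0.0180) and Hif1a by 0.40 ± 0.12 (0.0264). Urod averaged 32.8 ± 2.52, 36.6 ± 2.65, 37.4 ± 2.70 and 46.7 ± 1.80 scaled TPM (SD) in Hap-I aged WD, Hap-I aged, Hap-I adult WD and C57.

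Urod, Pgrmc1, Fdx1 and Slc25a37 kept their calls on every single omission, with highest adjusted p of 0.00996, 0.0249, 0.038 and 0.0176. Under the other alternatives only Fdx1 kept its call throughout (highest adjusted p = 0.0409). Urod lost its call without scaling (0.112), Pgrmc1 without scaling or with an atrial covariate (highest 0.0774), and Slc25a37 without scaling or with the length correction (highest 0.121). The other 8 of these 12 lost theirs without 1 or more of C57 1 to 3 and Hap-I aged WD 2 to 4, with highest adjusted p of 0.0771 to 0.154. The count was 4 with an atrial covariate, 6 with a covariate for Y-linked transcripts and 1 (lower) without scaling, and 9 when only these groups were fitted. The levels of Abcb6, Ndor1, Nubp1 and Trf are uncertain, because 52.1%, 64.2%, 31.5% and 63.9% of the 31-base words in these genes also occur elsewhere among annotated transcripts. Trf also stood beside the atrial markers, which were lower in Hap-I aged WD than in C57 hearts; with the atrial covariate its call was lost, and the difference moved within -1.24 to -0.70 over the alternatives other than omissions.

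In Hap-I adult WD against C57, 2 of the 99 rose and 1 fell (3.0%, against 3.45% of all genes). Ciapin1 rose by 0.39 ± 0.09 (adjusted p = 0.0244) and Lpcat3, which places polyunsaturated fatty acids in phospholipids, by 0.42 ± 0.10 (0.0333). Nfe2l2, the antioxidant transcription factor NRF2, fell by 0.49 ± 0.11 (0.0234). All 3 calls were lost without 1 or more of C57 1 and 3, Hap-I adult WD 1 to 3 and Hap-I aged 4 (highest adjusted p of 0.0992 to 0.146), with an atrial covariate, and when only these 2 groups were fitted.

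The mean of the 3 Hap-I groups against C57 gave 5 risers and 9 fallers among the 99 (14.1%, against 15.7% of all genes), using the same C57 hearts again. Urod (-0.39, adjusted p = 0.00375) and Ciapin1 (0.34, 0.00708) kept their calls on every single omission, with highest adjusted p of 0.0344 and 0.0485. Under the other alternatives Urod lost its call without scaling or with the length correction (highest adjusted p = 0.207), and Ciapin1 without scaling or with an atrial covariate (highest 0.261). In all, 0 of the 99 were called without scaling, 1 with an atrial covariate, 7 with a covariate for Y-linked transcripts and 9 with no filter. Pgrmc1 (-0.42, 0.0101), Nfe2l2 (-0.38, 0.0122), Trf (-0.95, 0.0349), Chac1 (-0.73, 0.0372), Hmox1 (-0.40, 0.0393) and Fdx1 (-0.31, 0.0451) were lower, and Hif1a (0.45, 0.0103), Nubp1 (0.34, 0.0202), Slc25a37 (0.27, 0.0316) and Ndor1 (0.32, 0.0388) higher. These 10 lost their calls without 1 or more of the libraries C57 1 to 3, Hap-I adult WD 1, 3 and 4, Hap-I aged 1 to 4 and Hap-I aged WD 1, 3 and 5, with highest adjusted p of 0.0543 to 0.301.

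Within the Hap-I groups fewer of the wider genes were called. In Hap-I aged against adult WD, 3 of 99 fell and 0 rose (3.0%, against 2.14% of all genes): Iba57, an iron-sulfur assembly factor (-0.43 ± 0.08, adjusted p = 0.0145), Lpcat3 (-0.51 ± 0.09, 0.0152) and Skp1a, a subunit of the ubiquitin ligase that carries Fbxl5 (-0.39 ± 0.09, 0.0337). Each was lost without 1 or more of Hap-I aged 1 to 4 and Hap-I adult WD 1 to 3 (highest adjusted p of 0.0589 to 0.101) and without scaling. For the diet in aged Hap-I mice (Hap-I aged WD against Hap-I aged) limma called 0 of the 99, against 0.166% of all genes. Y-linked transcripts were absent only in the first of these groups, in replicates 1 to 3, so diet and their absence are partly joined here. At an unadjusted p under 0.05 there were 19, of which 10 were higher. The share of all genes at that threshold is not given, so nothing is read from this count. Among the 19, Slc25a37 stood at 0.40 ± 0.08 in limma (adjusted p = 0.0525), with 3.28 to 3.82 scaled TPM in Hap-I aged WD and 2.03 to 2.60 in Hap-I aged hearts. Iba57 stood at 0.38 ± 0.07 (adjusted p = 0.0512), with 5.60 to 6.99 and 4.44 to 5.02 in the same groups. Neither gene overlapped between these groups, and neither did 7.14% of all genes. For age under the diet (Hap-I aged WD against adult WD) limma called 0 of the 99, against 2.39% of all genes. At an unadjusted p under 0.05 there were 15, of which 4 were higher, again without the share of all genes beside them.

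**Figure D5:**
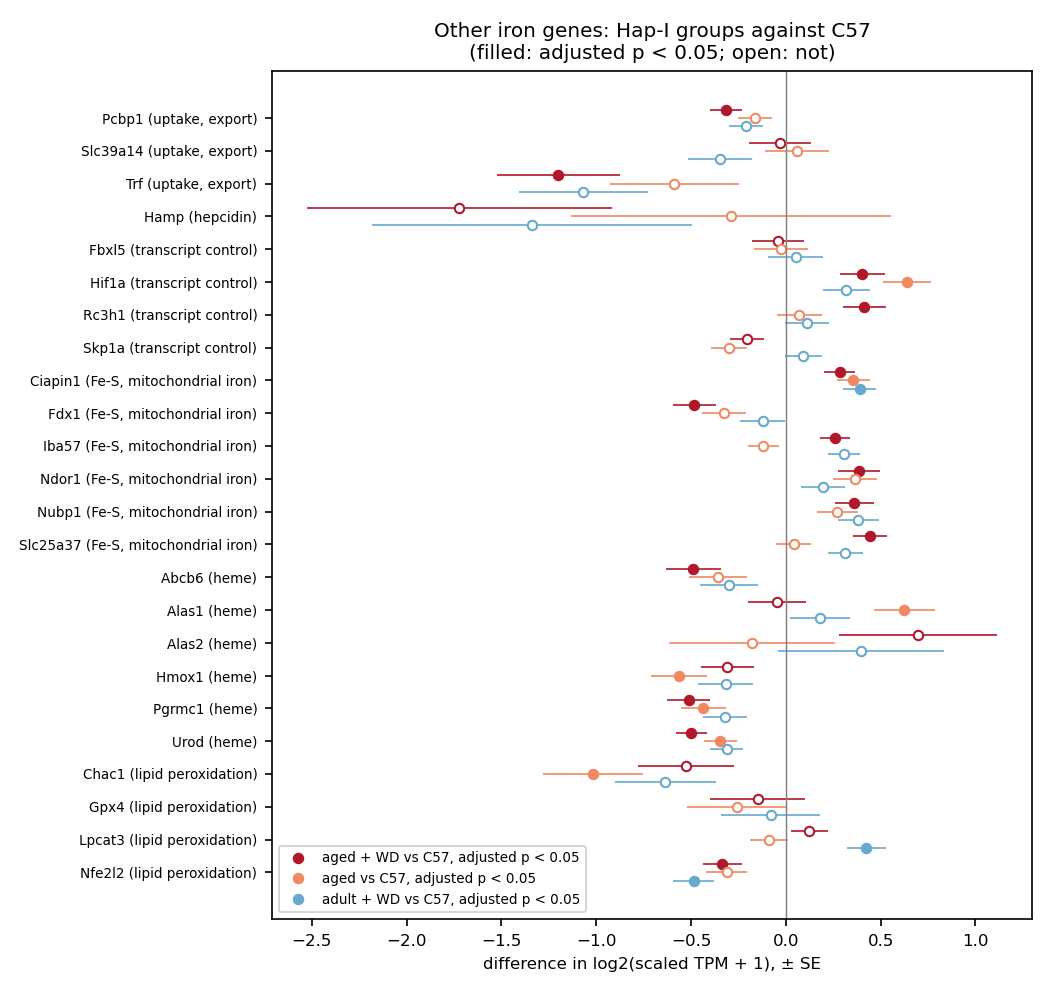
Differences in log2(scaled TPM + 1) ± SE (horizontal axis) of the 24 named wider iron genes, by functional list, in the 3 Hap-I groups against the same C57 hearts; filled points have an adjusted p under 0.05 over all genes. Ciapin1 is filled in all 3 comparisons, and Urod and Pgrmc1 are filled in Hap-I aged WD and Hap-I aged.

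Hamp, which encodes the iron hormone hepcidin that removes ferroportin from cell surfaces, was near 0 in most hearts. It was 0 to 0.170 scaled TPM in Hap-I aged WD, 0, 0.309, 3.41 and 10.7 in Hap-I aged, 0 to 1.35 in Hap-I adult WD and 0, 1.28 and 17.9 in C57. The 3 highest values were in C57 replicate 3 and Hap-I aged replicates 3 and 1, whose atrial marker sums were 4609, 5145 and 824. C57 replicate 1, with the highest atrial sum of all 16 hearts (6786), had Hamp at 1.28. Hap-I adult WD replicate 1, with an atrial sum of 1186, had Hamp at 1.35. The part of atrial tissue was not tested. Hamp was not called in any comparison. Fbxl5, which senses iron and marks iron regulatory protein 2 for decay, averaged 12.4, 12.5, 13.2 and 12.7 scaled TPM in Hap-I aged WD, Hap-I aged, Hap-I adult WD and C57. The transporter Slc39a14 averaged 9.63, 10.2, 7.62 and 9.78, and Gpx4, which reduces lipid peroxides, 591, 540, 640 and 645 in the same order of groups. Alas2, the erythroid enzyme of heme synthesis, lay at 8.10 to 36.5 in Hap-I aged WD, 8.27 to 12 in Hap-I aged, 7.26 to 32.8 in Hap-I adult WD and 9.39 to 15.8 in C57. None of these 4 was called in any comparison.

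Tfrc is a known target of the hypoxia-inducible factors, and 14 other targets of these factors were tested. They too were listed with earlier results of these data known, so their p-values are no independent test. In Hap-I aged WD against C57, 4 rose and 4 fell (57.1% of 14, against 21.9% of all genes). In Hap-I aged against C57, 1 rose and 0 fell (7.1%, against 11.2%), and in Hap-I adult WD against C57, 1 rose and 2 fell (21.4%, against 3.45%). The medians over the 14 were 0.04, -0.07 and -0.06 in these 3 comparisons, which share the C57 hearts. Vegfa, the endothelial growth factor, named here after its values were seen, averaged 106 ± 25, 74.9 ± 3.87, 72.6 ± 13.4 and 49.3 ± 2.21 scaled TPM (SD) in Hap-I aged WD, Hap-I aged, Hap-I adult WD and C57. In limma it rose in Hap-I aged WD against C57 by 1.05 ± 0.17 (adjusted p = 0.00111). Of the 14 differences in that comparison, 7 were positive and 7 negative. Pgk1 and Slc2a1, named likewise, averaged 169 and 3.52 in Hap-I aged WD, against 214 and 5.4 in C57. The activity of the factors was not tested.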

How the data were processed

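Total RNA from whole hearts was read as poly(A)-selected, stranded libraries per the labels' protocols. The submitters' processing notes name kallisto, DESeq2 and GRCm38, with no role or version; the authors deposited TPM per gene, one table for all samples (totals of 942090 to 959772 per library), and the read counts were not used here. Of 30153 gene identifiers, 29732 matched a symbol. A size factor for each library, the median ratio of its TPM to the geometric gene means over genes above 0 throughout, was divided out. The filter kept the 11415 genes that reached 1 TPM in 3 or more of the 16 libraries, and log2(scaled TPM + 1) was fitted in limma 3.58.1 (R 4.3.3) as a model of 4 group means with a variance trend, with 7 contrasts and Benjamini-Hochberg adjustment over all genes kept. The threshold for a call was an adjusted p of 0.05. Data were simulated over 11415 genes with independent normal noise at each gene's SD from the 4-group fit. Changes were planted in the Hap-I aged libraries, only in genes with a mean log2 level above 2. In Hap-I aged against C57, 94.0% of changes of 1 and 95.0% of changes of 2 on the log2 scale were recovered, with 3 false calls. Lower genes were not covered, nor were spreads that differ between groups, such as that of Tfrc. The noise followed the model that was fitted, so these shares may overstate recovery in the real data.

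The members and lists were chosen with earlier results of these data known, so the 8 genes carry no p-value. For the same reason p-values of listed genes are no independent test. Named genes were the 8, wider iron genes called in a comparison (at most 12 per comparison by smallest p), 8 further genes fixed by name (Hamp, Trf, Slc39a14, Slc25a37, Fbxl5, Hmox1, Alas2, Gpx4; 1 other is not reported here), and the 5 and 3 genes nearest in profile to Tfrc and to ferritin. The 10 alternatives besides the omission of each library were no scaling, quantile normalization, scaling without mitochondrial genes, a pseudocount of 0.1, no filter, a filter at 5 TPM, a fit of only the groups compared, a correction for transcript length (lowess, span 0.3), a covariate for absent Y-linked transcripts and a covariate for atrial markers. Transcript sequences, UTRs and coordinates are those of GENCODE M21 (GRCm38). Replicate numbers follow the order of the samples and pair nothing. No library pair was identical. P-values measure the spread between these libraries.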

Additional observations from a re-analysis of the deposited data

Results flagged for a closer look

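Of 95 sets of 1 named gene in 1 group of 4 or 5 hearts, 4 held a library far from the rest of its group; chance flags about 1 set in 20. Slc11a2 was 5.94 scaled TPM in Hap-I aged replicate 2, the lowest of 4, and Slc25a37 was 2.03 in the same library, also the lowest of 4. Slc40a1 was 9.76 in Hap-I aged WD replicate 3, the highest of 5, and Urod was 37.3 in the same library, again the highest of 5. That library also had the lowest Tfrc of its group (4.99) and the lowest sum of erythroid markers (1782).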

How the results depend on the processing

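No value changed from a call in one direction to a call in the other, and 1440 of 1456 alternative values of the 8 genes lay within 1 SD of the replicates; the 16 others concern Slc11a2, Slc40a1, Fth1, Ftl1, Ncoa4, Ireb2 and Aco1 under no scaling, quantile normalization or the length correction. All 182 alternative values of Tfrc lay within 1 SD. That SD is limma's for each gene over the 4 groups and is wider than the standard error of the difference, so it is a lenient measure. Several of these settings still lost a Tfrc call, as given above. Without scaling the median of all genes moved to -0.16 (aged WD against aged), 0.11 (aged WD against adult WD), 0.27 (aged against adult WD), 0.13 (aged against C57), -0.13 (adult WD against C57) and -0.03 (aged WD against C57). The number of wider iron genes called changed by more than 1.5 times as follows, and the cause was not tested. Without scaling it was 0 for aged against adult WD (3 in the fit reported), 0 for aged against C57 (7), 0 for adult WD against C57 (3), 1 for aged WD against C57 (18) and 0 for the Hap-I mean against C57 (14). With only the groups compared it was 6, 16, 0 and 9 for aged against adult WD and for aged, adult WD and aged WD against C57. With the atrial covariate it was 4, 0, 4 and 1 for aged, adult WD, aged WD and the Hap-I mean against C57, and with the covariate for Y-linked transcripts 1, 6 and 7 for adult WD, aged WD and the Hap-I mean. With the length correction it was 3 for aged WD against aged (0) and 3 for aged against C57. With no filter it was 1 for aged WD against aged and 9 for the Hap-I mean, and with a pseudocount of 0.1 it was 1 for aged WD against aged. Leaving out 1 library gave 0 to 3 for aged WD against aged, 0 to 6 for aged WD against adult WD, 0 to 9 for aged against adult WD, 1 to 9 for aged, 0 to 7 for adult WD and 5 to 21 for aged WD against C57, and 3 to 15 for the Hap-I mean. No paired analysis was possible because the labels carry no replicate numbers shared between groups. TPM hide the depth, and C57 has only 3 hearts, all adults.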
